A study of Mus musculus with 22 samples.

Results

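The comparison was between nonlesional skin of mice that carry the K5-VGLL3 transgene and nonlesional skin of wild-type mice. It used 8 of the 22 samples of the series, chosen by their labelled tissue and strain: 4 transgenic (TG) and 4 wild-type (WT) skin libraries, each from a different tagged animal. Replicates 1 and 2 of each genotype were male and replicates 3 and 4 female. K5 is the promoter of keratin 5, which is active in basal keratinocytes, so the transgene was driven in the basal epidermis and related follicle cells rather than in every skin cell. The wild-type animals carried no transgene and were matched in age and sex. The sources used here do not give the age of the skin donors, the body site, the hair cycle stage or the number of transgenic lines.

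VGLL3 is a cofactor without a DNA-binding domain of its own that acts through TEAD transcription factors, the same partners that YAP and TAZ use. Healthy skin houses resident T cells, among them regulatory T cells that gather near hair follicles, together with Langerhans cells, macrophages and mast cells. Skin T cells are drawn in by chemokines such as CCL17 and CCL22, ligands of the receptor CCR4, and interferon-gamma made by T cells switches on antigen presentation genes through transcription factors such as IRF1. Hair follicles pass through growth (anagen) and rest (telogen), and a growing follicle adds hair keratin, pigment cell and cell division transcripts to a skin sample.

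The depth was 19600892 to 40678246 counts per library. Levels are normalised read counts per 1000000 counts of the TMM-scaled library (CPM), and log2 fold changes are TG over WT, from edgeR's quasi-likelihood test with sex as a covariate. The threshold was an adjusted p of 0.05 (Benjamini-Hochberg), and a gene said to have passed was under it. Skin markers were high in each library, for example Krt5 at 3701 ± 830.2 CPM (SD, n = 4) in TG and 3063 ± 621 CPM (SD, n = 4) in WT, and haemoglobin genes took at most 0.0438% of the counts. Libraries of the same genotype stood apart in hair follicle content. The mean log2 CPM of 20 hair shaft keratin and keratin-associated genes, called the hair shaft score below, was -2.05, 3.05, -1.88 and -2.06 in TG replicates 1 to 4 and 4.44, -2.14, 9.53 and 5.99 in WT replicates 1 to 4. TG replicate 2 thus scored among the WT libraries and WT replicate 2 among the TG libraries. In the females hair score and genotype coincide and cannot be told apart; among the males 1 library of each genotype was high and 1 was low.

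Vgll3 itself (chromosome 16, 65815257 to 65866368 on mm10) was at 98.9, 779, 123 and 92.3 CPM in TG replicates 1 to 4 and at 73, 92.3, 43.7 and 49.1 CPM in WT replicates 1 to 4. TG replicate 2 stood far above all other libraries, and TG replicate 4 was level with WT replicate 2, so the groups overlapped. Vgll3 did not pass (log2 fold change 1.81, SE 0.589, edgeR adjusted p = 0.243), and without TG replicate 2 the log2 fold change was 0.85 (adjusted p = 0.102). Whether transcripts of the transgene were counted as Vgll3 is not stated in the sources used here, so this level may not measure the transgene. In cultured keratinocytes of other animals, described below, Vgll3 passed as higher in TG (log2 fold change 1.19, edgeR adjusted p = 0.000716). Vgll4, a relative of VGLL3 that represses TEAD, had 61.2, 64.2, 61.4 and 55.1 CPM in TG and 75.5, 70.2, 90.4 and 93.9 CPM in WT, with every TG library below every WT library (log2 fold change -0.44, SE 0.125, edgeR adjusted p = 0.227). The keratin pair of the basal layer did not pass: Krt5 had 0.25 (adjusted p = 0.616) and Krt14 0.26 (adjusted p = 0.523) on the log2 scale.

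Of 17342 genes tested, 2 passed, Ccl17 and Tigit, both higher in TG skin (0.0115% of genes). Ccl17 (chromosome 8, 94810453 to 94812036 on mm10), the CCR4 ligand that recruits T helper 2 and regulatory T cells, had 8.32, 5.97, 15.7 and 22.1 CPM in TG replicates 1 to 4 and 0.247, 0.437, 0.345 and 0.375 CPM in WT. The lowest TG library exceeded the highest WT library by more than the whole WT range, and the 2 TG females were the highest (log2 fold change 5.07, SE 0.397, edgeR adjusted p = 0.0177). Tigit (chromosome 16, 43648867 to 43664146 on mm10), which encodes a checkpoint receptor that restrains lymphocytes and is abundant on regulatory T cells, had 1.24, 1.85, 2.69 and 3.4 CPM in TG and 0.099, 0.0398, 0.106 and 0.107 CPM in WT, from 300 and 11 counts in all (log2 fold change 4.66, SE 0.369, edgeR adjusted p = 0.0177). Its groups did not overlap either. Both calls were lost when TG replicate 1 or 3 or WT replicate 1, 3 or 4 was left out and when the sex term was dropped, where 0 genes passed in each case, and Tigit alone was lost without TG replicate 4. DESeq2 called 1092 genes, 1019 of them among the genes edgeR tested (5.88%), and 309 genes passed edgeR without WT replicate 2, the WT library with the low hair score.

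**Figure D1:**
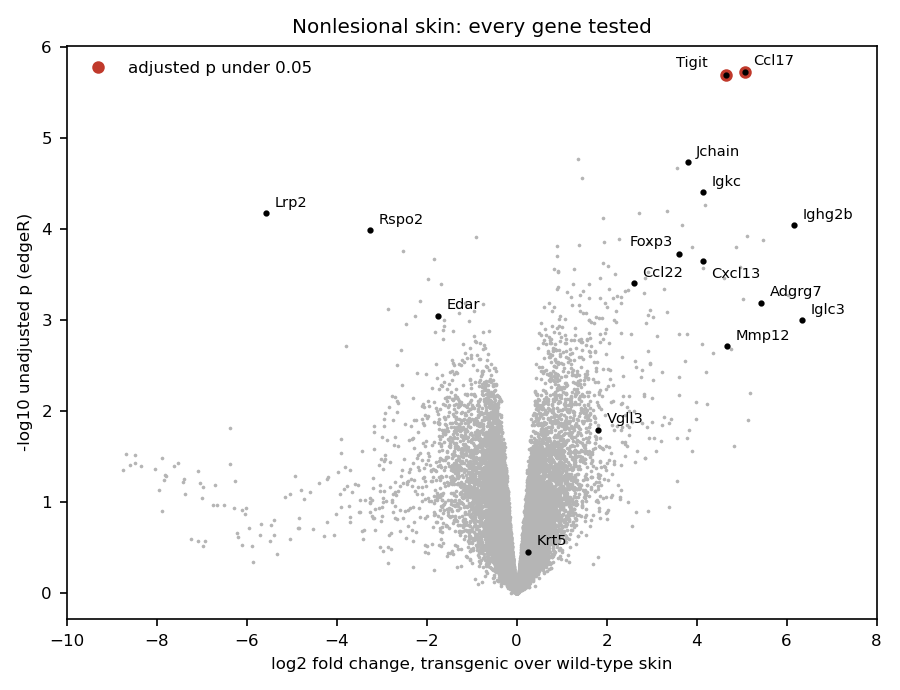
Every gene tested in skin, with the log2 fold change (TG over WT) on the x axis and −log10 of the unadjusted edgeR p on the y axis. Ccl17 and Tigit (red) are the 2 genes past the adjusted threshold, at log2 fold changes of 5.07 and 4.66, and Rspo2 and Lrp2 are labelled among the genes lower in TG skin, at -3.26 and -5.56.

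At an unadjusted p under 0.05 there were 1395 genes higher (8.04%) and 1533 lower (8.84%) in TG skin. All 4 TG libraries lay above all 4 WT libraries in 675 genes (3.89%) and below them in 608 (3.51%). The median log2 fold change over all genes was -0.01, and 49.1% of genes had a positive value. Gene lists below are read against these shares; unless a gene is said to have passed, it did not. In whole skin, more cells of a type and more RNA per cell cannot be told apart, and the p-values measure the spread between the animals sampled. Of 9 tested VGLL, TEAD, YAP and TAZ genes, 0 passed edgeR, 1 had an unadjusted p under 0.05 in the higher and 2 in the lower direction, DESeq2 called 1 and 2, Vgll4 and the TEAD factor gene Tead3, lay below all WT libraries. Lists share members, such as Tigit in the regulatory T cell and checkpoint receptor lists.

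The start of Ccl17 is shown because this was the gene with the largest difference among those that passed. The 250 bases before its RefSeq start on GRCm38.p6 (chr8:94810203-94810452, plus strand), written 5′ to 3′ along the gene, hold 1 match to the GAS letters, an interferon-gamma response motif, TTCNNNGAA, in capitals:
Ccl17: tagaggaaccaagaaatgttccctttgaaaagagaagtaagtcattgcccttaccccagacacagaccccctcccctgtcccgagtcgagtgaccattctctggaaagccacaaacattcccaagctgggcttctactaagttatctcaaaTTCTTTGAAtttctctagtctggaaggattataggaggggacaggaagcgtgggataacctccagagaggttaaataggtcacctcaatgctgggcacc
The same window holds 1 match to the TEAD letters GGAATG on the reverse strand, as do 14.4% of 27025 genes, and GAS matches occur in 8.13% of genes. In Ccl22 and Tigit, the windows of the same length held no match to GAS, to GGAATG, to the ISRE letters GAAANNGAA or to the NF-kB letters GGANTTTCC, which says only that these letters are not there. ISRE and NF-kB matches occur in 8.18% and 1.25% of genes. Both strands were searched, matches of different motifs were allowed to overlap, and a match describes letters and no binding.

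Chemokines that guide T cells and dendritic cells had the same direction as Ccl17. Of 20 CC chemokines, all tested, 18 had a positive and 2 a negative log2 fold change, with a median of 0.99; 7 lay above all WT libraries and 1, Ccl17, passed. Ccl22, the second CCR4 ligand and a product of dendritic cells, had 12, 30.1, 34.5 and 36.2 CPM in TG and 1.83, 6.36, 4.97 and 4.9 CPM in WT (log2 fold change 2.60, SE 0.436, edgeR adjusted p = 0.147). Its lowest TG library, replicate 1, lay above the highest WT library, replicate 2. Ccl1, the ligand of CCR8, had 1.24, 0.967, 2.53 and 2.24 CPM in TG against 0.445, 0.119, 0.451 and 0.429 CPM in WT (log2 fold change 2.23, SE 0.395, edgeR adjusted p = 0.154). Ccl11, eotaxin, which attracts eosinophils, had 71.5, 61.4, 113 and 115 CPM against 34, 25.7, 35.2 and 33 CPM, a smaller difference with little spread within groups (log2 fold change 1.45, SE 0.165, edgeR adjusted p = 0.0801). Ccl19, which with Ccl21 guides CCR7-bearing cells in lymphoid tissue, had 7.2, 12.6, 11.1 and 8.11 CPM against 2.33, 4.37, 1.59 and 1.63 CPM (log2 fold change 2.06, SE 0.354, edgeR adjusted p = 0.15). Its receptor gene Ccr7 had 2.56, 4.49, 4.44 and 5.24 CPM in TG and 0.247, 0.994, 0.398 and 0.536 CPM in WT, again without overlap (log2 fold change 2.93, SE 0.471, edgeR adjusted p = 0.133). The TG libraries were thus above all WT libraries in each of Ccl22, Ccl1, Ccl11, Ccl19 and Ccr7.

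The CCR4 gene itself did not separate the genotypes. Ccr4 had 16.4, 3.5, 17.9 and 21 CPM in TG and 8.96, 13.4, 4.17 and 4.39 CPM in WT, with TG replicate 2 below every WT library (log2 fold change 1.0, SE 0.644, edgeR adjusted p = 0.434). Ccr8, a receptor of skin-resident and regulatory T cells, had 0.864, 0.995, 1.3 and 2.62 CPM in TG and 0, 0.676, 0.425 and 0.402 CPM in WT, where replicate 1 had 0 counts (log2 fold change 1.85, SE 0.727, edgeR adjusted p = 0.276). Of 20 tested chemokine receptors out of 22, all 20 were positive (median 0.90), 3 lay above all WT libraries and 0 passed edgeR; 8 had an unadjusted p under 0.05 and DESeq2 called 5. Ccl20, the CCR6 ligand of epithelium, varied widely, with 6.91, 1.59, 38.3 and 112 CPM in TG and 0.148, 2.27, 1.94 and 3.16 CPM in WT, with TG replicate 2 inside the WT range (log2 fold change 3.43, SE 1.05, edgeR adjusted p = 0.236).

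T cell genes stood higher in TG skin. All 21 genes of the T cell receptor complex and its signalling were tested and positive (median 1.28), 10 lay above all WT libraries and 0 passed edgeR, while 12 had an unadjusted p under 0.05 and DESeq2 called 11. Trac, the constant part of the T cell receptor alpha chain, had 7.8, 11.3, 11.4 and 13.8 CPM in TG and 1.09, 2.86, 1.04 and 2.87 CPM in WT (log2 fold change 2.48, SE 0.429, edgeR adjusted p = 0.15). Cd2, an adhesion receptor of T and NK cells, had 10.8, 9.53, 15.1 and 14.5 CPM and 1.53, 4.1, 2.66 and 3.64 CPM (log2 fold change 2.04, SE 0.320, edgeR adjusted p = 0.133). Both separated the groups, whereas the CD3 gamma chain gene Cd3g overlapped, at 19.8, 9.47, 29.7 and 33.7 CPM against 7.08, 18.1, 5.5 and 12.1 CPM, because WT replicates 2 and 4 were above TG replicate 2 (log2 fold change 1.03, SE 0.507, edgeR adjusted p = 0.335). Cd8a, a chain of the CD8 co-receptor, overlapped too, with 1.53, 2.47, 1.02 and 1.54 CPM in TG and 0.346, 0.756, 0.266 and 2.3 CPM in WT.

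Regulatory T cell genes included 1 of the genes that passed. Of 15 regulatory T cell genes 14 were tested, all 14 were positive (median 1.48), 7 lay above all WT libraries and 1, Tigit, passed. Foxp3, the lineage factor of regulatory T cells, had 5.01, 5.69, 9.26 and 13.2 CPM in TG and 0.247, 1.11, 0.372 and 0.804 CPM in WT (log2 fold change 3.61, SE 0.543, edgeR adjusted p = 0.122). Ctla4, which removes CD80 and CD86 from antigen-presenting cells, had 4.38, 3.81, 6.89 and 13.3 CPM and 0.792, 1.47, 0.611 and 0.563 CPM (log2 fold change 2.97, SE 0.556, edgeR adjusted p = 0.167). In both genes the groups did not overlap and the 2 TG females were the highest libraries. Tnfrsf9, the receptor 4-1BB of activated T cells, had 2.19, 2.67, 4.81 and 6.57 CPM against 0.396, 0.954, 0.531 and 0.938 CPM (log2 fold change 2.41, SE 0.416, edgeR adjusted p = 0.15). Il2ra, the high-affinity interleukin-2 receptor chain, had 7.92, 7.96, 13.7 and 15 CPM against 3.32, 3.3, 1.17 and 2.04 CPM (log2 fold change 2.21, SE 0.434, edgeR adjusted p = 0.17). Il10, a cytokine of regulatory cells, was low in every library and did not separate the groups, at 0.518, 0.483, 1.75 and 1.54 CPM and 0.445, 0.557, 1.7 and 1.02 CPM (log2 fold change 0.15, SE 0.287, edgeR adjusted p = 0.804).

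Checkpoint receptor genes of T cells, listed with the activating receptor gene Cd226 and the transcription factor gene Tox, were positive throughout, at 11 of 11 (median 1.07). Of these, 3 lay above all WT libraries, 5 had an unadjusted p under 0.05 and 1, Tigit, passed. Of 9 checkpoint ligand genes 7 were positive (median 0.48) and 1 lay above all WT libraries. Among them 3 had an unadjusted p under 0.05 and 0 passed edgeR, while DESeq2 called 2. Pdcd1, encoding PD-1, had 0.432, 0.825, 0.979 and 0.946 CPM in TG and 0, 0.318, 0.106 and 0.268 CPM in WT, without overlap (log2 fold change 2.13, SE 0.676, edgeR adjusted p = 0.239). Havcr2, encoding TIM-3, had 12.4, 6.68, 17.9 and 12.4 CPM and 2.82, 7.44, 2.31 and 4.47 CPM, with TG replicate 2 below WT replicate 2 (log2 fold change 1.52, SE 0.462, edgeR adjusted p = 0.233). On the log2 scale Lag3, which binds MHC class II, had 0.67 (adjusted p = 0.395) and Btla, the receptor of HVEM, 0.01 (adjusted p = 0.992). Among ligands, Cd274, encoding PD-L1, had 25.9, 16.8, 25.4 and 31 CPM against 16.8, 15.6, 6.35 and 8.28 CPM, where TG replicate 2 and WT replicate 1 nearly touched (log2 fold change 1.17, SE 0.347, edgeR adjusted p = 0.231). Pdcd1lg2, encoding PD-L2, had 3.77, 0.54, 5.42 and 5.13 CPM against 0.099, 0.994, 0.266 and 1.04 CPM, with TG replicate 2 far below the other TG libraries (log2 fold change 2.49, SE 0.836, edgeR adjusted p = 0.249). Pvr, a ligand of TIGIT, had 15.9, 15.4, 15.4 and 14.7 CPM in TG and 17.9, 16, 12.4 and 14 CPM in WT and a log2 fold change of 0.04 (SE 0.141, adjusted p = 0.912).

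**Figure D2:**
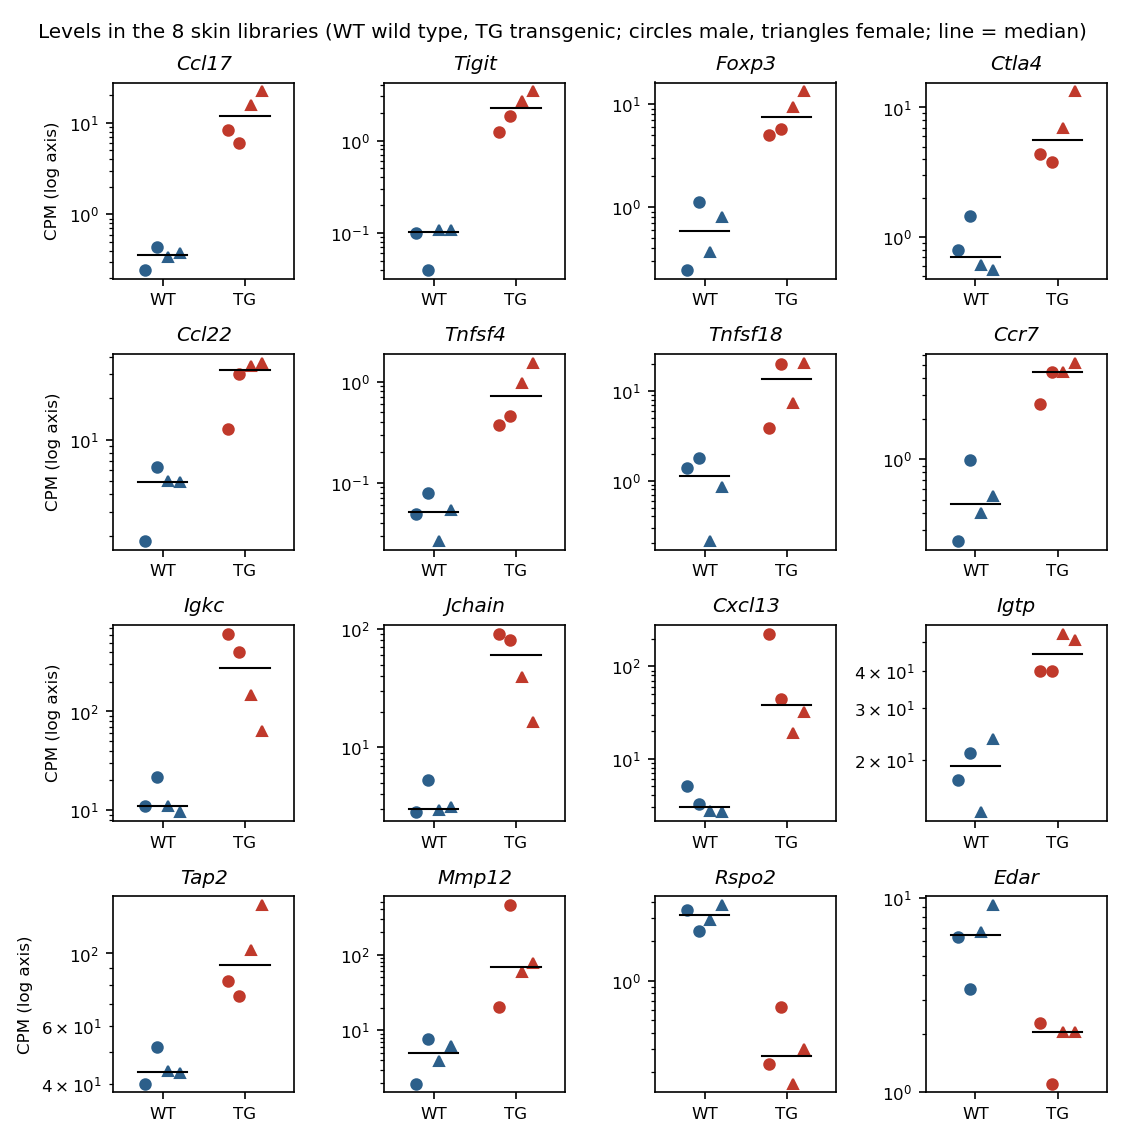
Levels in CPM (log axis) of 16 genes in the 8 skin libraries; each point is 1 library, circles are males, triangles females, red TG, blue WT and the line the median of 4. In each of the 16 genes the TG and WT points do not overlap, with Rspo2 and Edar lower and the other genes higher in TG skin. The genes were picked with their values known, so this separation follows from the choice. Over all genes tested, 3.89% lay above and 3.51% below all WT libraries.

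Members of the TNF superfamily, which carry costimulation and lymphoid tissue signals, gave 13 of 24 tested genes (of 26) with every TG library above every WT library, beside 3.89% of all genes. All 24 had a positive log2 fold change (median 1.15), 0 passed edgeR, 15 had an unadjusted p under 0.05 and DESeq2 called 12. Tnfsf4, the OX40 ligand, had 0.374, 0.455, 0.979 and 1.54 CPM in TG and 0.0495, 0.0795, 0.0266 and 0.0536 CPM in WT, so WT libraries held only a few counts each (log2 fold change 3.89, SE 0.568, edgeR adjusted p = 0.11). The OX40 receptor gene Tnfrsf4 had 9.76, 6.71, 21.9 and 30.4 CPM and 6.34, 11.3, 5.23 and 5.63 CPM, high in the TG females and within the WT range in the TG males (log2 fold change 1.09, SE 0.527, edgeR adjusted p = 0.331). Tnfsf18, the GITR ligand, had 3.86, 20.1, 7.34 and 20.8 CPM against 1.39, 1.79, 0.212 and 0.857 CPM, without overlap (log2 fold change 3.79, SE 0.782, edgeR adjusted p = 0.185). Tnfsf11, encoding RANKL, had 2.27, 1.14, 4.24 and 10.6 CPM against 0.445, 0.199, 0.584 and 1.1 CPM (log2 fold change 2.82, SE 0.493, edgeR adjusted p = 0.154). In Tnfsf4, Tnfsf18 and Tnfsf11 every TG library stood above all WT libraries. Tnf itself had 3.22, 2.25, 3.26 and 4.35 CPM and 1.09, 1.99, 0.531 and 1.23 CPM (log2 fold change 1.47, SE 0.435, edgeR adjusted p = 0.231). Of its receptors, Tnfrsf1b, the receptor of immune cells, had 58.4, 48.3, 59.8 and 49.9 CPM against 22.9, 31.6, 28.4 and 31.6 CPM (log2 fold change 0.92, SE 0.147, edgeR adjusted p = 0.133), and the widely expressed Tnfrsf1a had a log2 fold change of 0.17 (adjusted p = 0.524).

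Most cytotoxic and type 2 genes had positive values. Gzmb, granzyme B, had 1.84, 0.853, 3.38 and 2.81 CPM in TG and 0, 0.318, 0.266 and 0.723 CPM in WT (log2 fold change 2.78, SE 0.671, edgeR adjusted p = 0.217). Gzmc, granzyme C, had 8.32, 5.26, 19.7 and 17.9 CPM and 0.643, 3.94, 2.95 and 3.32 CPM (log2 fold change 2.08, SE 0.523, edgeR adjusted p = 0.223). Of 17 cytotoxic and NK cell genes 13 were tested, all 13 were positive (median 0.93) and 4 lay above all WT libraries; with the hair shaft score as a covariate 10 were positive and the median was 0.17. Of 15 type 2 cytokine, receptor and alarmin genes 11 were tested, 10 were positive (median 0.70), 0 lay above all WT libraries, 0 passed edgeR, 3 had an unadjusted p under 0.05 and DESeq2 called 1. Il13, the type 2 cytokine, had 0.461, 0.313, 1.43 and 2.89 CPM in TG and 0.247, 0.318, 0.0797 and 0.134 CPM in WT, high in the 2 TG females while the TG males overlapped WT (log2 fold change 2.41, SE 0.852, edgeR adjusted p = 0.259). Il4 did not share that pattern (log2 fold change -0.20, adjusted p = 0.789). Il33, an alarmin of epithelium and stroma, overlapped as well and had 55.7, 36.3, 45.1 and 32.8 CPM and 35.7, 52.1, 13 and 15.3 CPM (log2 fold change 0.76, SE 0.330, edgeR adjusted p = 0.299).

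Plasma cell genes had the highest median of the 50 lists, 2.32 over 15 tested of 18 genes, with 13 positive, 8 above all WT libraries and 0 passing edgeR; 10 had an unadjusted p under 0.05 and DESeq2 called 10. Igkc, the kappa light chain constant gene, had 611, 400.1, 146 and 63.1 CPM in TG and 11, 21.8, 11.1 and 9.51 CPM in WT (log2 fold change 4.14, SE 0.495, edgeR adjusted p = 0.0974). Jchain, which joins IgA and IgM into polymers, had 90.9, 80.9, 39.6 and 16.5 CPM and 2.82, 5.29, 2.95 and 3.11 CPM (log2 fold change 3.80, SE 0.409, edgeR adjusted p = 0.0751). Unlike Foxp3 or Ccl17, these genes were highest in the 2 TG males. Ighg2b, a heavy chain constant gene of IgG, had the same order, at 22.9, 17, 1.02 and 1.73 CPM against 0.0495, 0.0795, 0.0531 and 0.107 CPM (log2 fold change 6.16, SE 0.830, edgeR adjusted p = 0.11). Iglc1, a lambda light chain gene, had 35.2, 26.1, 11.9 and 1.24 CPM against 0.445, 0.597, 0.398 and 0.375 CPM (log2 fold change 4.96, SE 0.784, edgeR adjusted p = 0.133). Immunoglobulin constant genes resemble each other, and reads could have been split among Iglc1, Iglc2 and Iglc3 or among the IgG genes, so single members are uncertain. Igha overlapped, at 74.2, 359, 146 and 21.6 CPM and 6.09, 33.3, 15.5 and 13.3 CPM, as WT replicate 2 was above TG replicate 4 (log2 fold change 3.00, SE 0.826, edgeR adjusted p = 0.227). Without TG replicate 4, the TG library lowest in Igkc and Jchain, 4 genes passed: Ccl17, Igkc, Iglc1 and Jchain.

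B cell genes were scarcer. Of 16 such genes, 9 were abundant enough to be tested, with 6 positive and 3 negative values, 2 above all WT libraries and a median of 0.92. Spib, a transcription factor of B cells, plasmacytoid dendritic cells and specialised epithelium, had 3.11, 1.05, 8.2 and 19 CPM in TG and 0.445, 0.636, 0.85 and 0.643 CPM in WT (log2 fold change 3.13, SE 0.650, edgeR adjusted p = 0.185). Tnfsf13b, encoding BAFF, which keeps B cells alive, had 5.7, 6.03, 4.97 and 4.86 CPM and 2.33, 2.58, 1.83 and 1.61 CPM (log2 fold change 1.38, SE 0.200, edgeR adjusted p = 0.11). The receptor genes of this axis had opposite signs. Tnfrsf17, the receptor BCMA of plasma cells, had 1.76, 1.05, 1.51 and 1.38 CPM against 0.346, 0.915, 0.77 and 0.482 CPM (log2 fold change 1.17, SE 0.377, edgeR adjusted p = 0.243). Tnfrsf13c, the BAFF receptor, had 0.777, 0.228, 0.856 and 0.243 CPM against 1.44, 0.835, 5.52 and 2.89 CPM (log2 fold change -2.09, SE 0.654, edgeR adjusted p = 0.237). Cxcl13, which organises B cell follicles, had 225, 44.3, 19.1 and 32.1 CPM in TG and 5.05, 3.22, 2.71 and 2.63 CPM in WT, led by TG replicate 1 (log2 fold change 4.15, SE 0.639, edgeR adjusted p = 0.13). Ltb, lymphotoxin beta, had 7.31, 5.92, 13.7 and 14.6 CPM against 2.03, 3.1, 1.54 and 2.22 CPM (log2 fold change 2.14, SE 0.381, edgeR adjusted p = 0.154). Of 18 genes of lymphoid organisation 12 were tested, all 12 positive (median 1.21) and 6 above all WT libraries.

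Genes induced by interferon-gamma were positive throughout. Of 22 such genes 20 were tested, all 20 were positive (median 0.98), 11 lay above all WT libraries and 0 passed edgeR, while 16 had an unadjusted p under 0.05 and DESeq2 called 12. Igtp (chromosome 11, 58199556 to 58207591 on mm10), a GTPase that attacks pathogen vacuoles, had 40.0, 40.1, 53.3 and 51 CPM in TG and 17.2, 21.2, 13.4 and 23.6 CPM in WT (log2 fold change 1.28, SE 0.204, edgeR adjusted p = 0.133). Gbp2 (chromosome 3, 142620602 to 142638008 on mm10), a guanylate-binding protein, had 87.2, 66.3, 107 and 79.4 CPM and 29.8, 39.5, 26.9 and 45.1 CPM (log2 fold change 1.26, SE 0.212, edgeR adjusted p = 0.147). Irf1, a transcription factor that interferon induces, had 65.8, 74, 113 and 115 CPM against 37.3, 48.1, 23.8 and 43.6 CPM (log2 fold change 1.23, SE 0.277, edgeR adjusted p = 0.196). None of Igtp, Gbp2 and Irf1 overlapped between genotypes. Ifng itself had 18 counts in all TG and 6 in all WT libraries and was too low to be tested.

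The upstream windows of Igtp and Irf1 are printed because they hold the letters through which interferon signalling is known to act. Each is the 250 bases before the RefSeq start on GRCm38.p6, 5′ to 3′ along the gene, with the ISRE match (GAAANNGAA) in capitals in Igtp and the GAS match (TTCNNNGAA) in capitals in Irf1:
Igtp: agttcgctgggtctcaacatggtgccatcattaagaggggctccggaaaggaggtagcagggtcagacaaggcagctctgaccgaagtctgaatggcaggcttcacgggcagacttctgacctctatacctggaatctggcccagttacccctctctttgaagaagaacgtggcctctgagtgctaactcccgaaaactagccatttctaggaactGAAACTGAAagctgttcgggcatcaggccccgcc
Irf1: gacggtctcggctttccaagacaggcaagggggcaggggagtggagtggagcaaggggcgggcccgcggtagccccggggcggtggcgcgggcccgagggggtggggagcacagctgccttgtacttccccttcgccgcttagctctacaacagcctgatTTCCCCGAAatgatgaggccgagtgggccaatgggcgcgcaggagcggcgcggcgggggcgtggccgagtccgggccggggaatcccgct
They lie at chr11:58199306-58199555, plus strand (Igtp) and chr11:53769764-53770013, plus strand (Irf1, the first of 2 starts). The windows of Gbp2 and Irgm1 hold 1 and 2 ISRE matches, and the Igtp window also holds 1 GAS match, not capitalised. An ISRE match was found in 12 of 15 list genes with a RefSeq window (80.0%) against 8.18% of all 27025 genes, and a GAS match in 9 of 15 (60.0%) against 8.13%. The list was assembled from genes known to answer interferon, so these shares describe its make-up and not the transgene. Irgm1, a GTPase related to Igtp, had 37.5, 35.8, 53.9 and 49.6 CPM in TG and 22.4, 31.3, 18.4 and 37.5 CPM in WT, where TG replicate 2 lay below WT replicate 4 (log2 fold change 0.67, SE 0.240, edgeR adjusted p = 0.262).

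**Figure D3:**
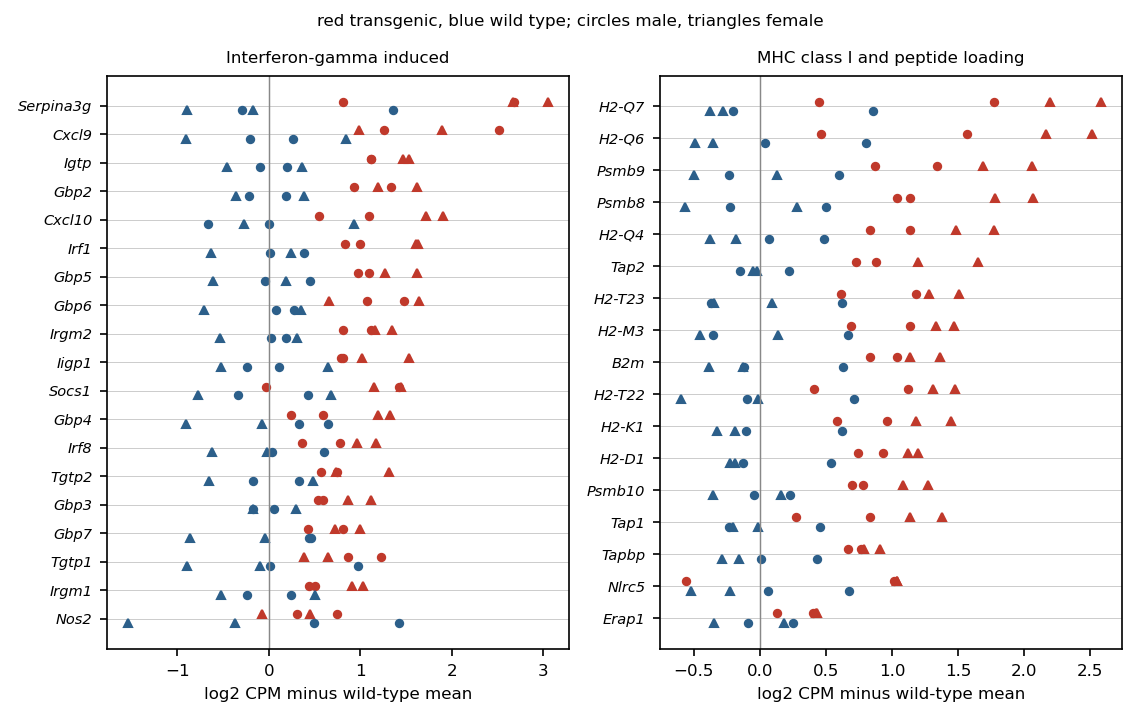
Log2 CPM minus the WT mean in each library for 19 of the 20 tested interferon-gamma-induced genes (left) and the 17 MHC class I genes (right), 1 point per library, red TG and blue WT, circles male and triangles female. Every TG point lies above every WT point in 9 of the 17 MHC class I genes, and the 2 TG males are the lower TG points in all 17 MHC class I genes.

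MHC class I genes, which present cell-internal peptides to CD8 T cells, had the same direction. All 17 class I and peptide loading genes were tested and positive (median 1.07), 9 lay above all WT libraries, 15 had an unadjusted p under 0.05, DESeq2 called 15 and 0 passed edgeR. Tap2, encoding part of the transporter that carries peptides to class I, had 82.2, 74, 102 and 140.3 CPM in TG and 40.2, 52.1, 44 and 43.2 CPM in WT (log2 fold change 1.12, SE 0.194, edgeR adjusted p = 0.152). Psmb8, an interferon-inducible proteasome subunit, had 75.3, 70.1, 118 and 143 CPM and 29.3, 48.5, 23.1 and 41.6 CPM (log2 fold change 1.46, SE 0.311, edgeR adjusted p = 0.186). The class I chain genes of the H2 cluster are near-identical copies, so single H2 genes are uncertain. Of 30 genes induced mainly by type I interferon, all tested, 27 were positive, the median was 0.46, 3 lay above all WT libraries and 10 had an unadjusted p under 0.05. Xaf1, an apoptosis-related gene of this list, had 13.3, 18.8, 19.4 and 16.1 CPM against 7.97, 9.9, 5.82 and 11.6 CPM (log2 fold change 0.93, SE 0.254, edgeR adjusted p = 0.227). Oasl2, a relative of the antiviral oligoadenylate synthetases, overlapped, with WT replicate 4 the highest library, at 21.6, 24.7, 34.3 and 28.9 CPM against 10.8, 7.0, 20.5 and 36.6 CPM (log2 fold change 0.76, SE 0.321, edgeR adjusted p = 0.291). The difference between both interferon lists was not tested.

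Antigen-presenting and myeloid genes varied by cell type. Itgax, the integrin CD11c of dendritic cells, had 15.5, 51.8, 36.3 and 32.3 CPM in TG and 4.75, 11.1, 5.71 and 8.6 CPM in WT (log2 fold change 2.17, SE 0.423, edgeR adjusted p = 0.169). Il12b, the subunit shared by interleukins 12 and 23, had 0.432, 0.654, 0.652 and 0.486 CPM and 0.148, 0.0795, 0.186 and 0.241 CPM (log2 fold change 1.75, SE 0.390, edgeR adjusted p = 0.193). The Langerhans cell gene Cd207 overlapped, at 36.5, 12.7, 57.4 and 62.6 CPM against 10.6, 26.2, 8.21 and 16.2 CPM, as did the class II transactivator gene Ciita, at 41.2, 10.2, 49 and 37.5 CPM against 11.1, 27, 8.68 and 16.9 CPM. All 12 class II genes were positive (median 1.10), 2 lay above all WT libraries and 6 had an unadjusted p under 0.05; TG replicate 2 stood within the WT range in 10 of them. In 19 macrophage and monocyte genes the median was 0.51 with 0 genes separating the groups, 0 at an unadjusted p under 0.05 and 0 by DESeq2. Mast cell and basophil genes had a median of 0.92 over 10 of 12 tested. Fcer1a, the IgE receptor alpha chain, had 2.39, 0.398, 2.32 and 3.05 CPM against 0.346, 0, 0.0797 and 0.241 CPM, with TG replicate 2 just above the highest WT library (log2 fold change 3.60, SE 0.900, edgeR adjusted p = 0.22).

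Other immune lists held few genes that separated the genotypes. Of 15 genes of the interleukin-17 and interleukin-23 axis, 11 were tested, 10 were positive (median 0.82), 1, Il12b, lay above all WT libraries, 6 had an unadjusted p under 0.05, DESeq2 called 3 and 0 passed edgeR. Of 14 interleukin-1 and interleukin-36 family genes, 10 were positive (median 0.22), with 0 above all WT libraries, 0 passing edgeR, 2 at an unadjusted p under 0.05 and 0 by DESeq2. Il1b, the cytokine itself, had 17.4, 3.73, 15.7 and 11.9 CPM in TG and 1.68, 5.57, 9.75 and 9.91 CPM in WT, with TG replicate 2 inside the WT range (log2 fold change 1.01, SE 0.556, edgeR adjusted p = 0.374). Of 14 neutrophil genes, 9 were tested and 7 positive (median 1.15), again with 0 above all WT libraries. The gamma delta T cell genes of the epidermis, 9 of 10 positive (median 0.70), included Tcrg-C2, a constant gene of the gamma chain, at 3.2, 1.79, 4.24 and 2.86 CPM against 0.841, 2.15, 1.01 and 1.5 CPM, where TG replicate 2 and WT replicate 2 overlapped (log2 fold change 1.12, SE 0.405, edgeR adjusted p = 0.264). With the hair shaft score as a covariate the gamma delta list had a median of 0.01.

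Nucleic acid sensors, which feed the type I interferon response, had a median of 0.28 over 18 of 19 tested genes, with 15 positive and 3 above all WT libraries. Samhd1, a nuclease that limits free nucleotides and sensor ligands, had 147, 120.1, 166 and 156 CPM in TG and 73, 106, 70.6 and 124 CPM in WT (log2 fold change 0.65, SE 0.210, edgeR adjusted p = 0.242). Ifih1, encoding the RNA sensor MDA5, had 31.7, 26.1, 35.6 and 33.6 CPM against 22.2, 24.2, 22.4 and 25.5 CPM (log2 fold change 0.42, SE 0.127, edgeR adjusted p = 0.231). Of 17 inflammasome and lytic cell death genes, 14 were positive (median 0.21), and Gsdmd, encoding the pore protein of pyroptosis, had 29.3, 28.8, 37.8 and 31.6 CPM against 14.3, 21.7, 9.98 and 21.7 CPM (log2 fold change 0.91, SE 0.269, edgeR adjusted p = 0.231). Genes of 12 proteins known as targets of lupus autoantibodies had a median of -0.13, and 4 were positive. Of them Trim21, the Ro52 antigen and an interferon-induced ubiquitin ligase, had 16.3, 16.9, 19.1 and 21 CPM against 10.1, 14.4, 8.21 and 13.4 CPM (log2 fold change 0.67, SE 0.218, edgeR adjusted p = 0.243). Ssb, the La antigen, had 95.6, 142, 129.9 and 131 CPM against 161, 109, 211 and 202 CPM (log2 fold change -0.42, SE 0.198, edgeR adjusted p = 0.321). Ifih1, Gsdmd and Trim21 separated the genotypes, whereas in Samhd1 TG replicate 2 lay below WT replicate 4 and in Ssb WT replicate 2 lay inside the TG range.

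Most endothelial, adhesion and complement genes had positive values. Of 17 endothelium and leukocyte adhesion genes 15 were positive and 2 negative (median 0.50), 9 had an unadjusted p under 0.05 and 2, Vcam1 and Icam1, lay above all WT libraries. Vcam1, which binds lymphocyte integrins, had 22.5, 15, 21.7 and 23.3 CPM in TG and 8.37, 9.94, 7.65 and 13.2 CPM in WT (log2 fold change 1.07, SE 0.222, edgeR adjusted p = 0.185), and Icam1 had 58.5, 52.7, 59.4 and 67.1 CPM and 28, 40.4, 20.5 and 34.2 CPM (log2 fold change 0.96, SE 0.215, edgeR adjusted p = 0.196). Pecam1, a pan-endothelial gene, had a log2 fold change of 0.47 (SE 0.183, adjusted p = 0.275). C1ra and C1s1, the proteases of the first complement complex, did not overlap between genotypes, at 0.89 (SE 0.130, adjusted p = 0.11) and 0.93 (SE 0.149, adjusted p = 0.133) on the log2 scale. C3 had 2344, 1091, 1428 and 1203 CPM against 795, 592, 343 and 224 CPM (log2 fold change 1.76, SE 0.339, edgeR adjusted p = 0.169). Of 17 complement genes, all positive, 3 lay above all WT libraries (median 0.57); with the hair shaft score as a covariate 12 were positive and the median was 0.04.

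Outside the immune lists, the genes with the largest folds and no overlap included products of epithelium and matrix. Mmp12, macrophage elastase, had 20.2, 452, 58.5 and 77.7 CPM in TG and 1.98, 7.6, 3.9 and 6.16 CPM in WT, with TG replicate 2, the library highest in Vgll3, far above the rest (log2 fold change 4.68, SE 1.02, edgeR adjusted p = 0.191). Without that library its log2 fold change was 3.14. Adgrg7, an adhesion G protein-coupled receptor, had 6.62, 0.398, 9.62 and 18.7 CPM against 0.148, 0.199, 0.133 and 0.214 CPM (log2 fold change 5.43, SE 0.986, edgeR adjusted p = 0.158), where TG replicate 2 was close to the WT libraries. It passed without that library (log2 fold change 5.91, adjusted p = 0.0162). F7, coagulation factor VII, had 2.33, 7.79, 4.32 and 10.5 CPM against 0.099, 0.0398, 0.212 and 0.589 CPM (log2 fold change 4.88, SE 0.714, edgeR adjusted p = 0.11). Of 22 wound and stress keratinocyte genes 14 were tested, with 8 positive and 6 negative values (median 0.72), 3 at an unadjusted p under 0.05 and 2, Krt6b and Lcn2, above all WT libraries. Krt6b, a keratin of stressed and wounded epidermis, had 0.432, 1.31, 12.4 and 0.621 CPM against 0.099, 0.0795, 0.266 and 0.214 CPM, carried by TG replicate 3 (log2 fold change 4.22, SE 1.03, edgeR adjusted p = 0.217). Lcn2, lipocalin 2, an iron-binding antibacterial protein of inflamed epithelium, had 16.6, 40.9, 6.56 and 7.86 CPM against 4.6, 3.38, 3.56 and 2.44 CPM (log2 fold change 2.06, SE 0.442, edgeR adjusted p = 0.186), and with the hair shaft score as a covariate it passed, at 2.80 (adjusted p = 0.0378). Krt16, another stress keratin, overlapped, with 13.8, 19.1, 57.4 and 51.9 CPM and 4.26, 7.83, 57.9 and 6.51 CPM, and WT replicate 3 was the highest library.

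Single genes lower in all TG libraries had several roles. Of the 24 anagen genes 1, Edar, and of the 13 melanocyte genes 0 lay below all WT libraries, beside 3.51% of all genes. Rspo2, a secreted amplifier of Wnt signalling, had 0.23, 0.626, 0.163 and 0.297 CPM in TG and 3.46, 2.39, 2.92 and 3.78 CPM in WT (log2 fold change -3.26, SE 0.448, edgeR adjusted p = 0.11). Because Rspo2 was chosen for not overlapping, WT replicate 2 and TG replicate 2 had to keep to their genotypes in it. This carries no information on hair state. Edar, the ectodysplasin receptor needed for hair placodes, had 2.27, 1.11, 2.04 and 2.05 CPM against 6.29, 3.42, 6.67 and 9.19 CPM (log2 fold change -1.74, SE 0.332, edgeR adjusted p = 0.169). Lrp2, megalin, an endocytic receptor, had 4 counts in all TG libraries together and 220 in WT, or 0, 0.0569, 0 and 0.054 CPM against 1.44, 0.636, 2.18 and 2.49 CPM (log2 fold change -5.56, SE 0.717, edgeR adjusted p = 0.106). Edn3, endothelin 3, a growth factor for melanocytes, had 1.53, 2.25, 2.24 and 1.92 CPM against 10.8, 3.5, 5.1 and 32.4 CPM (log2 fold change -2.55, SE 0.661, edgeR adjusted p = 0.227). Ret, a receptor tyrosine kinase of neural crest lineages, had 8.12, 18.1, 5.18 and 3.67 CPM against 30.5, 24.3, 53.6 and 38.2 CPM (log2 fold change -2.21, SE 0.542, edgeR adjusted p = 0.218). Slc40a1, the iron exporter ferroportin, had 20.3, 28.8, 27.3 and 25.5 CPM against 33.9, 43.3, 416 and 156 CPM, with the gap set mainly by the 2 WT females (log2 fold change -2.05, SE 0.649, edgeR adjusted p = 0.238). With the hair shaft score as a covariate the values were -2.78 for Rspo2, -1.63 for Edar, -4.80 for Lrp2 and -1.35 for Ret. They were -1.97 for Edn3 and -1.14 for Slc40a1, and none of these genes passed.

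Hair shaft, pigment cell and cell division genes had negative values throughout, and their medians were nearer to 0 with the hair shaft score as a covariate. Beyond fits with the score as a covariate, the part of the hair cycle in the genotype differences was not tested. Without the score, the medians were -5.99 for hair shaft, -3.18 for melanocyte, -1.97 for anagen and -1.31 for cell cycle genes, and 0 genes of the 4 lists passed edgeR (0.0115% of genes passed), while 1, 2, 6 and 18 had an unadjusted p under 0.05 in the lower direction and DESeq2 called 11, 1, 3 and 8. With the score as a covariate they were 0.02, -0.09, -0.15 and -0.36. For the hair shaft genes that value follows from the score, which is their own mean, and shows nothing. With the score 24 of 26 cell cycle genes were still negative. In cultured tail keratinocytes of other TG and WT animals, 22 of 26 cell cycle genes passed, 0 of them higher (median -0.51), beside 15.2% of genes passing in either direction. All TG cultures were male and the WT cultures were of both sexes, so sex and genotype cannot be fully told apart there. The first principal component of the skin libraries held 54.7% of the variance and placed TG replicate 2 (15.6) on the side of WT replicates 1, 3 and 4 (38.9, 117 and 65.8) and WT replicate 2 (-55.3) beside the other TG libraries (-69.1, -55.4 and -57.6). Immune lists changed by different amounts with the covariate: the medians became 2.47 for plasma cell, 0.88 for regulatory T cell, 0.82 for T cell, 0.83 for CC chemokine, 0.80 for interferon-gamma, 0.61 for MHC class I, 0.31 for MHC class II, -0.01 for macrophage and -0.27 for mast cell genes, beside -0.03 over all genes. They became 1.81 for neutrophil, 0.65 for TNF superfamily, 0.61 for type I interferon, 0.48 for checkpoint receptor and 0.36 for chemokine receptor genes. The medians were 0.33 for interleukin-17 axis, 0.20 for type 2 cytokine, 0.03 for checkpoint ligand and -0.41 for interleukin-1 family genes. With the covariate 2 genes passed as higher (0.0115%), Ccl17 and Lcn2, and 2 as lower (0.0115%), Aldh1l2 and C7. Ccl17 was at 4.43 (adjusted p = 0.0071), and Tigit was at 4.94 and did not pass (adjusted p = 0.0526).

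**Figure D4:**
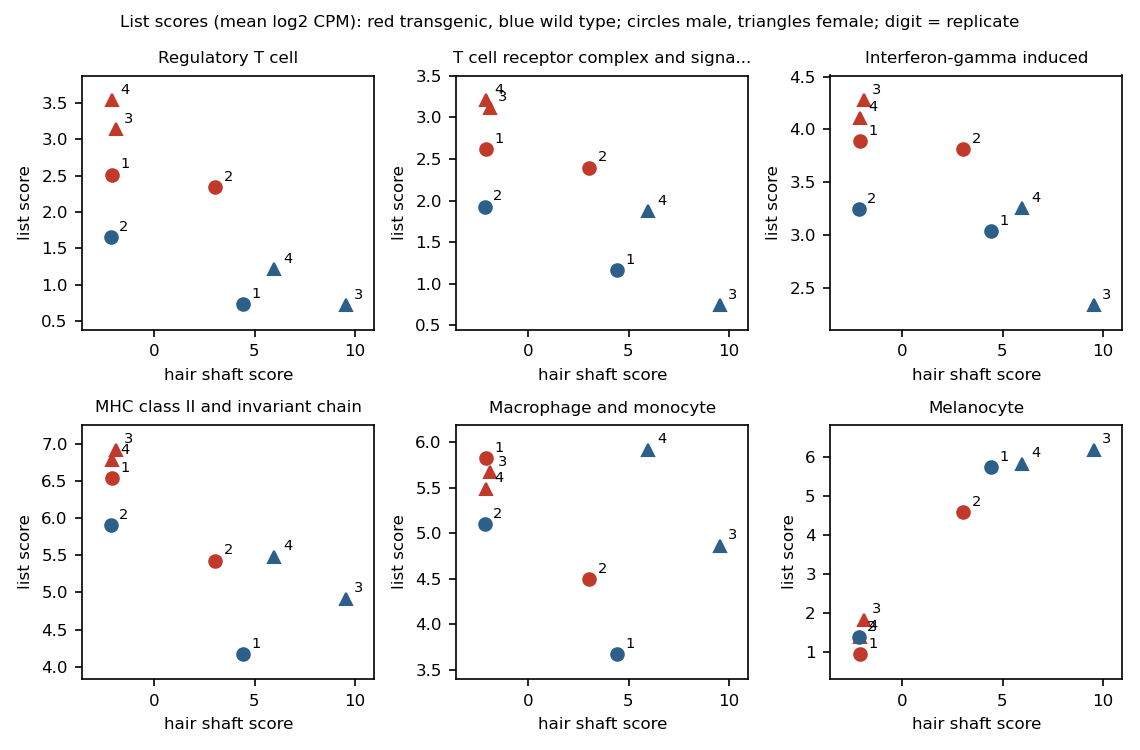
Score of 6 gene lists (mean log2 CPM, which weights each gene alike, y axis) against the hair shaft score (x axis) in the 8 skin libraries, red TG, blue WT, circles male, triangles female, digits the replicate. TG replicate 2 and WT replicate 2 exchange sides on the x axis; by this score the TG libraries lie above all WT libraries in the regulatory T cell, T cell and interferon-gamma lists and not in the MHC class II and macrophage lists.

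Libraries of like hair score can be set side by side. The T cell list score was 2.62, 2.39, 3.12 and 3.21 in TG and 1.17, 1.93, 0.75 and 1.87 in WT. TG replicate 1 and WT replicate 2, both male with hair shaft scores of -2.05 and -2.14, scored 2.62 and 1.93. TG replicate 2 and WT replicate 1, male with hair shaft scores of 3.05 and 4.44, scored 2.39 and 1.17. For the interferon-gamma list the scores were 3.89, 3.81, 4.28 and 4.11 in TG and 3.04, 3.25, 2.34 and 3.25 in WT, again without overlap. The summed level, in which abundant genes weigh most, overlapped for 2 of these lists: the lowest TG library, replicate 2, had 183 CPM in T cell and 124 CPM in regulatory T cell genes, and the highest WT library, replicate 2, had 202 CPM and 140.4 CPM. Summed interferon-gamma genes did not overlap, at 497 CPM in the lowest TG and 345 CPM in the highest WT library. The MHC class II list scores were 6.53, 5.43, 6.92 and 6.78 in TG and 4.16, 5.91, 4.92 and 5.48 in WT. TG replicate 1 and WT replicate 2, alike in hair score, scored 6.53 and 5.91. TG replicate 2 and WT replicate 1 scored 5.43 and 4.16, so TG was higher in both pairs. Outside these pairs, TG replicate 2 scored below WT replicate 2, low in hair score. It also scored below WT replicate 4, a female with a hair shaft score of 5.99. These pairs are single libraries and carry no test.

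Sex was considered because VGLL3 is known for higher expression in female skin. The WT libraries here did not show that order: Vgll3 was at 73 and 92.3 CPM in WT males and at 43.7 and 49.1 CPM in WT females. In edgeR 0 genes passed the sex-by-genotype test (0.0%), while 1456 had an unadjusted p under 0.05 (8.4%) and DESeq2 called 135. Within females, where hair state and genotype coincide, 0 genes passed edgeR (0.0%) and 4328 (25.0%) had an unadjusted p under 0.05. Within males, where they cross, 1 gene passed (0.00577%), Ighg2b (log2 fold change 8.16, adjusted p = 0.0428), and 712 (4.11%) had an unadjusted p under 0.05. These within-sex fits were chosen after seeing the data. List medians were positive in both sexes for regulatory T cells (2.26 in females, 1.04 in males), T cells (1.85 and 0.87), CC chemokines (1.37 and 1.30), plasma cells (2.54 and 3.22), interferon-gamma genes (1.30 and 0.76) and MHC class I (1.51 and 0.64). Among lists with a higher median in males were type I interferon (0.14 with 17 of 30 positive in females, 0.84 with 28 of 30 in males) and neutrophil genes (0.67 and 1.98). These differences between the sexes were not tested over a list. In TG skin both males were below both females in 19 of 21 T cell genes and in 17 of 17 MHC class I genes, but in 8 of 30 type I interferon genes, beside 16.5% of all genes. In WT skin the same order held in 2 of 21, 0 of 17 and 19 of 30, beside 28.1% of all genes. Plasma cell genes had the opposite order in TG skin, with both males above both females in 7 of 15 genes, beside 16% of all genes. Against WT males, 19 of 21 T cell genes, 17 of 17 MHC class I genes and 23 of 24 TNF superfamily genes had a positive log2 fold change in TG males, beside 8355 of 17342 of all genes. The counts were lower for regulatory T cell (11 of 14), chemokine receptor (15 of 20) and gamma delta T cell genes (6 of 10).

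Single genes leaned toward one sex without passing the test of that difference. Il13 had a log2 fold change of 4.30 in females and 0.44 in males (interaction unadjusted p = 0.00256, edgeR adjusted p = 0.554), and Ctla4 of 4.10 and 1.84 (unadjusted p = 0.0105, edgeR adjusted p = 0.554). Ighg2b leaned the other way, at 4.05 in females and 8.16 in males (unadjusted p = 0.00178, edgeR adjusted p = 0.554). Ccl17 had 5.70 in females and 4.35 in males, and Tigit 4.79 and 4.45. With 2 animals of each sex and genotype, and the hair state split unevenly between the sexes, a sex effect and a hair state effect cannot be told apart here.

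**Figure D5:**
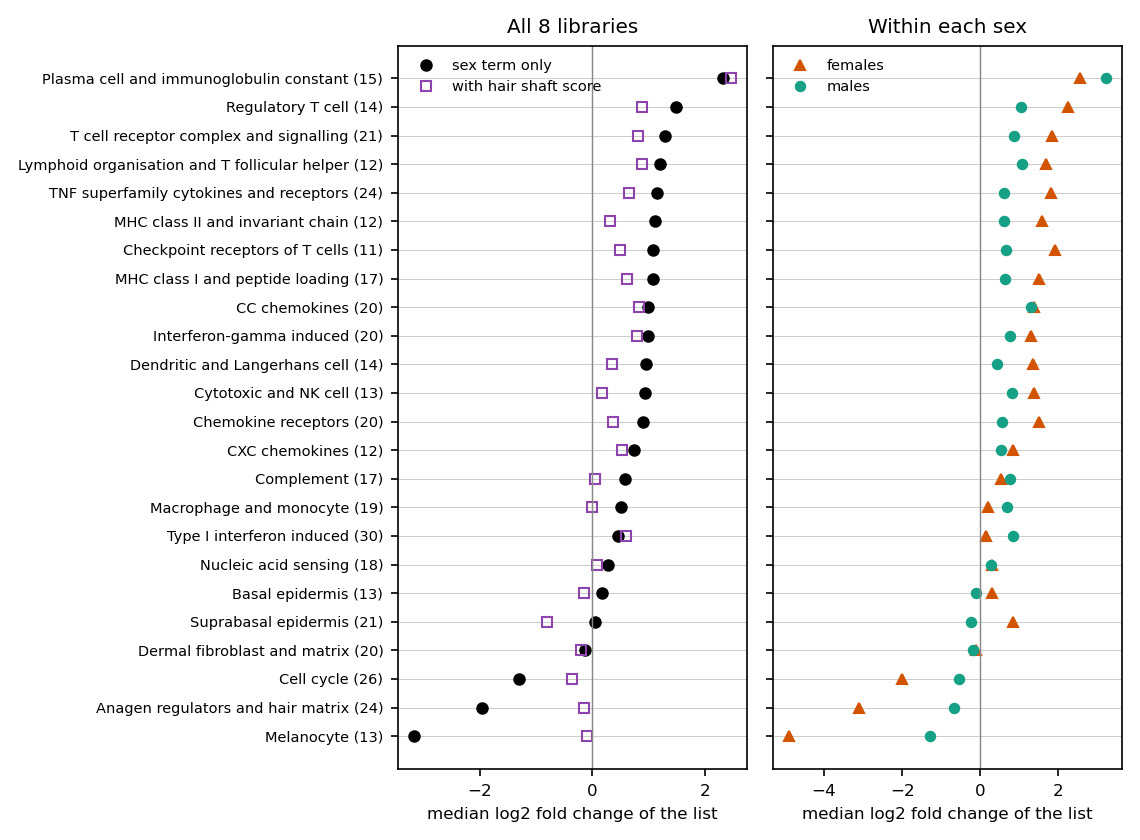
Median log2 fold change (TG over WT) of 24 gene lists, with the number of genes tested in brackets; left, all 8 libraries with sex as a term (black) and with the hair shaft score added (open squares), right, within females (triangles) and males (circles). Plasma cell genes kept a median above 2 in all 4 fits, while the melanocyte and anagen medians moved to near 0 with the score (-0.09 and -0.15).

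Genes of the epidermal layers had medians near 0 without the hair shaft score. Of 13 basal genes 8 were positive (median 0.16) and of 21 suprabasal genes 11 were positive (median 0.04). Of all 34, 0 passed edgeR, 5 had an unadjusted p under 0.05, all lower in TG, and DESeq2 called 1. With the score as a covariate the suprabasal median was -0.81, with 0 of 21 positive, and the basal median was -0.15, with 3 of 13 positive. The suprabasal median was 0.84 in females and -0.23 in males, and TG replicate 2 lay below all WT libraries in 15 of 21 suprabasal genes. Dsc1, a desmosomal cadherin of the upper epidermis, had 126, 23.8, 65.7 and 75.9 CPM in TG and 155, 148, 333 and 143 CPM in WT, with every TG library lower (log2 fold change -1.38, SE 0.508, edgeR adjusted p = 0.264). Sebaceous gland genes had a median of 0.81 over 19 of 20 tested, with Plin2, a lipid droplet coat protein, at 372, 208, 234 and 373 CPM against 148, 162, 173 and 179.8 CPM (log2 fold change 0.84, SE 0.227, edgeR adjusted p = 0.227). Fibroblast and matrix genes had a median of -0.13. WT replicate 2 held by far the most collagen transcripts, with Col1a1 at 8908, 29766, 1457 and 5218 CPM in WT replicates 1 to 4 and 2668, 4598, 1862 and 1729 CPM in TG, and its 10 most abundant genes took 13.1% of its counts. Genes of muscle, fat and nerve, tissues a skin piece can include, had medians of 0.17, 0.32 and 0.38, with 0 genes of the 3 lists passing edgeR, 3 at an unadjusted p under 0.05 and 2 called by DESeq2.

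Cultured tail keratinocytes, labelled with other tags than the skin animals, came from 3 TG (all male) and 3 WT (1 male and 2 female) animals and were normalised apart, with no sex term. Differences of sex and of genotype therefore cannot be fully told apart in the cultures. There 2197 of 14451 genes passed (15.2%), 1028 of them higher (7.11%). Vgll3 was among the higher genes, at 461 ± 49.1 CPM (SD, n = 3) in TG and 203 ± 19.1 CPM (SD, n = 3) in WT cultures. Adgrg7 had 16.9 ± 3.06 CPM (SD, n = 3) in TG and 0.339 ± 0.0797 CPM (SD, n = 3) in WT cultures and passed (log2 fold change 5.65, edgeR adjusted p = 6.73e-05). Mmp12 and Mmp13, another matrix metalloproteinase, passed as higher too, at 2.60 and 3.21 (adjusted p = 0.000757 and 0.0368), beside 4.68 and 3.60 in skin. Tap2 rose by 0.61 and C3 by 1.01 in the cultures (adjusted p = 0.00549 and 0.0312), and 5 of 15 measured MHC class I genes and 4 of 7 class II genes passed as higher. Some genes had the opposite sign to skin. Ccl20 fell in the cultures (log2 fold change -2.53, adjusted p = 0.000512), as did Tnfsf18 (-2.36, adjusted p = 0.0116) and Icam1 (-0.61, adjusted p = 0.0246). Ccl17 was at 0.0642 CPM in TG and 0.0915 CPM in WT cultures and too low to be tested.

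Whole blood of the same 8 animals served to compare the genotype effect between tissues. With animal as a block, 225 of 16655 genes differed in their genotype effect between the tissues (1.35%), 175 of them more positive (1.05%) and 50 more negative in skin (0.3%). Either tissue can set such a difference. The 225 genes included 11 of 21 suprabasal and 5 of 13 basal epidermis genes, whose skin medians were near 0 without the hair shaft score. All but the suprabasal gene Tgm1, a transglutaminase of the cornified envelope, were more positive in skin, and their mean CPM was higher in WT than in TG blood, for example Krt5 at 17.3 ± 7.41 CPM in WT and 0.768 ± 0.198 CPM in TG blood (SD, n = 4 each; log2 fold change -4.45, edgeR adjusted p = 0.00294). They also included 14 of 21 T cell genes and 7 of 15 plasma cell genes, among them Igkc (difference of log2 fold changes 4.86, edgeR adjusted p = 0.00619), Jchain (5.08, adjusted p = 0.0176) and Foxp3 (4.20, adjusted p = 0.029). Ccl17 was at 0 CPM in all 4 TG blood libraries and at 0.0955 ± 0.122 CPM (SD, n = 4) in WT blood, so no difference is given for it. Tigit, at 0.516 CPM in TG and 0.367 CPM in WT blood, had a difference of 4.09 and missed the threshold (adjusted p = 0.0527). The T cell list had a median of -0.89 in blood, and the plasma cell list -0.53, so lower values in TG blood are part of these differences. Skin and blood were extracted with different reagents, so tissue and reagent cannot be told apart.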

How the data were processed

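Skin RNA was extracted with TriPure and made into stranded TruSeq mRNA libraries sequenced on an Illumina HiSeq, per the labels' protocols. The authors deposited raw counts per gene symbol, made with STAR 2.5.2 and HTSeq 0.6.1 on mm10 (DESeq2 is also named), per the submitters' processing notes; the strand setting of the counting is not given in the sources used here. Of 24401 symbols, 71.1% matched GENCODE M21 names regardless of case, which gave names and coordinates. The 8 skin columns, matched by sample title, were tested with edgeR 4.0.16 in R 4.3.3 (filterByExpr by genotype, TMM, quasi-likelihood fit with sex and genotype, Benjamini-Hochberg threshold 0.05). The filter left 17342 genes and removed 7059. Standard errors are the fold change over the root of F. Alternatives used DESeq2 1.42.0, limma 3.58.1 and other settings; figures used Python 3.11.15 and matplotlib 3.10.9. The test was checked on simulated counts with known changes. In these simulated counts it recovered 12.5% of 2-fold, 69.2% of 4-fold and 97.0% of 16-fold changes, and 6 of the 123 genes called were unchanged. Most 2-fold changes were thus missed there. Whether these shares hold for the skin libraries was not tested. In skin, Ccl17 (33.6-fold higher in TG) and Tigit (25.2-fold) passed. Ighg2b (71.5-fold higher), Adgrg7 (43.2-fold higher) and Lrp2 (47.2-fold lower) did not pass, so large differences could also miss the threshold.

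Of 750 genes in 50 hand-made lists, 733 were found in the table. The members and lists were chosen with earlier results of these data known. Genes named were Vgll3, Krt5, Krt14, the genes that passed, the 12 highest and 12 lowest folds among genes without overlap and a mean of at least 1 CPM in the higher group (leaving out unnamed models, antigen receptor variable segments and sex-linked genes), and the 4 smallest p per list and per direction of the skin-minus-blood term. Named after their values were seen were Aldh1l2, Btla, C7, Ccl1, Ccr4, Ccr8, Cd207, Cd3g, Cd8a, Ciita, Ifng, Igha, Il10, Il2ra, Il4, Irf1, Irgm1, Krt16, Lag3, Oasl2, Pecam1, Pvr, Tgm1, Tnf, Tnfrsf1a, Tnfrsf4, Tnfsf11 and Tnfsf18. Some genes that this rule selects are not reported here. Promoter sequences are RefSeq, GRCm38.p6.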

Additional observations from a re-analysis of the deposited data

Results flagged for a closer look

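In 26 of 352 groups of 4 libraries examined, 1 library stood apart from the other 3 on the log2 CPM scale by Dixon's criterion, which chance alone meets in about 1 of 20 groups. TG replicate 2 was that library in 15 of them. It stood high in Vgll3 (779 CPM), Lef1 (21.1 CPM), Trpm1 (42.9 CPM), Gas1 (267 CPM) and Col3a1 (4463 CPM). It stood low in Pdcd1lg2 (0.540 CPM), Cd163l1 (3.19 CPM), Il1rl1 (5.12 CPM), Ms4a7 (11.4 CPM), Fcer1a (0.398 CPM), Fcgr2b (71.5 CPM), Casp14 (19.3 CPM), Edar (1.11 CPM), Vcam1 (15 CPM) and RP24-499A8.6 (3.73 CPM). WT replicate 2 stood low in the melanocyte genes Trpm1 (2.70 CPM), Oca2 (0.0398 CPM) and Gpr143 (0.119 CPM) and in Mki67 (47.5 CPM), and high in Jchain (5.29 CPM) and Fbln1 (202 CPM). The other libraries stood apart in Ccl22 (12 CPM) in TG replicate 1, Ifnar1 (51.4 CPM) and Retn (104 CPM) in TG replicate 4, Gzmc (0.643 CPM) in WT replicate 1, and Dsc1 (333 CPM) in WT replicate 3.

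The genotype effect differed between skin and blood of the same animals, with the smallest p in each direction, in 8 genes. The difference of log2 fold changes, skin minus blood, was 5.0 for Krt15, 4.95 for Defb6, 8.70 for Serpina3j and 4.41 for Col17a1, and -3.02 for Mapk13, -2.34 for Atp7a, -6.06 for RP24-499A8.6 and -6.31 for Csdc2 (edgeR adjusted p from 0.00116 to 0.0147). Krt15 and Col17a1, genes of the basal epidermis and hair follicle stem cells, had log2 fold changes of 0.64 and 0.24 in skin and -4.39 and -4.15 in blood, so the larger part of each difference lay in blood.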

How the results depend on the processing

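The count of skin genes past the threshold, 2 in the main analysis, was 2 with DESeq2-style size factors, with no filter, with limma-voom and with a robust fit. It was 1092 with DESeq2 (675 higher, 417 lower), 0 without the sex term, 4 with the hair shaft score (2 higher, 2 lower), and, in fits chosen after seeing the data, 0 within females and 1 within males, which was higher. Leaving out 1 library gave 0 to 309 genes, 0 to 145 higher and 0 to 164 lower; the high value came without WT replicate 2, and without TG replicate 2 there were 13 (9 higher, 4 lower). DESeq2 called 135 genes for the sex-by-genotype term against 0, and 980 for skin minus blood (624 more positive and 356 more negative in skin) against 225. With the tag number as a replicate block in place of sex, 0 genes passed. Deviations of same-numbered libraries from their genotype means correlated at 0.077, -0.472, -0.113 and 0.086, in 0 of 4 numbers best with each other. Same-numbered libraries were also of the same sex, and whether they share anything else was not tested.

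For 205 named genes under all alternatives, 3475 of 3690 values kept direction and side of the threshold. Of the others, 20 lost and 159 gained it, and 36, in 18 genes, changed sign. All 20 losses were in Ccl17 and Tigit, the only genes that had passed and so could lose it. Any other gene kept its side by not passing in either fit, so these shares do not measure how stable the calls of Ccl17 and Tigit were. With the hair shaft score the log2 fold changes that changed sign were Gata2 -0.035, Kit 0.32, Ifnar1 0.00180, Lamb3 -0.10, Tnni2 -0.051, Tnnt3 -0.15, Mbp -0.072, Snrpa 0.029, Pcna 0.042, Hba-a1 0.14, Alas2 0.38, Slc4a1 1.46, Hbb-bs 0.62, Defb6 -0.40 and Col17a1 -0.47. Within males they were Krt5 -0.070, Ifnar1 0.067, Lamb3 -0.10, Tbx1 0.12, Tnni2 -0.023, Tnnt3 -0.14, Mbp -0.060, Pcna 0.10, Hba-a1 0.46, Alas2 0.68, Slc4a1 0.82, Hbb-bs 0.94, Col17a1 -0.42 and Mapk13 0.19. Leaving out 1 library gave -0.042 to 0.050 for Ifnar1 (positive without TG replicate 4 and without WT replicate 4), -0.78 to 0.13 for Hbb-bs (positive without TG replicate 3 and without WT replicate 3) and -0.39 to 0.30 for Mapk13 (positive without TG replicate 2, TG replicate 3 or WT replicate 3). The cause of these changes was not tested. Of 900 list medians under an alternative, 832 moved by less than the SD of the list score over WT libraries. That SD is a loose measure for lists that follow hair content, as WT hair shaft scores ran from -2.14 to 9.53. With 19600892 to 40678246 counts per library, 7059 symbols, Ifng among them, were too low to test.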
